A study of Drosophila melanogaster with 3 samples.

Results

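The regions described here are 1063 of the 8529 reproducible binding peaks of the protein CG18262 in fly embryos (12.5%, exact Clopper-Pearson interval 11.8 to 13.2). They are those lying in introns of long genes, away from start sites. A peak was included when its summit, the base of highest signal, was more than 500 bp from every start site of a protein-coding gene, lay in no annotated exon, and fell inside at least 1 protein-coding gene of 50000 bp or longer. Of the 13945 protein-coding genes annotated on the chromosome arms, 307 were this long. The rule used positions only, and no measured height of a peak. The peaks are called long-gene intron peaks below, and the 2125 peaks placed the same way in shorter genes serve as the comparison.

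Most Drosophila genes are short, and the few long ones owe their length to large introns. Many of these genes encode regulators of development, cell surface proteins and neuronal proteins, and their introns often hold enhancers, stretches of DNA that bind transcription factors and switch the gene, or a neighbour, on in particular cells. A protein that binds inside a long intron can therefore sit far from every start site.

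The peaks come from chromatin immunoprecipitation and sequencing (ChIP-seq) of entire Drosophila melanogaster embryos of 0 to 16 h, males and females pooled. All embryos came from a transgenic line that stably makes CG18262 with GFP at its C-terminus, and the precipitating antibody recognised GFP. RefSeq annotates CG18262, a gene on X from 8152948 to 8154533, as an uncharacterized protein, and the labels class the assay as one for transcription factors. There were 3 biological replicates and 1 group, so nothing was compared between genotypes, ages or treatments, and the labels name 1 line as the source of all 3. In whole embryos, strong binding in a few cells and weak binding in many cannot be told apart. An untagged line and the read counts were not analysed here, so signal that GFP antibody would give at these sites without the fusion protein was not tested, and the sequencing depth is unknown.

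Printed below are the strongest peaks matched in all 3 replicates, 1 per gene for the first 8 genes by rank, with sbb passed over because sequence of its arm is not printed here. Each has 50 bases on either side of its summit, and the set is meant to show what the sequence under a summit looks like. The sequences are RefSeq's for the dm6 assembly, read 5′ to 3′, and capitals mark the longest run of A and T alone.
ush (chr2L:481029-481129, + strand): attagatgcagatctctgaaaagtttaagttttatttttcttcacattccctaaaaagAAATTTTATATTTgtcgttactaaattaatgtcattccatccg
Tlk (chrX:3742157-3742257, + strand): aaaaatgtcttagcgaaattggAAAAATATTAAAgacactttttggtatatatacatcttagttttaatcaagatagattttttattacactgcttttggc
CG1677 (chrX:7307179-7307279, + strand): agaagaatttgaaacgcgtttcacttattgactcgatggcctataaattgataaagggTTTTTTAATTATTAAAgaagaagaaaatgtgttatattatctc
osp (chr2L:14674817-14674917, + strand): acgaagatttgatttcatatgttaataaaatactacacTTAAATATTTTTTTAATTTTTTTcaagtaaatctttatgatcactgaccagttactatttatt
Hr4 (chrX:1947702-1947802, + strand): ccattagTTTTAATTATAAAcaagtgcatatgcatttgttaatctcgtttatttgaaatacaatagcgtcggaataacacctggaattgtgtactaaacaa
CG33158 (chr3L:16480512-16480612, + strand): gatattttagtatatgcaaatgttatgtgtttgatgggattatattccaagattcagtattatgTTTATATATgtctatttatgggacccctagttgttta
Eip75B (chr3L:18005187-18005287, + strand): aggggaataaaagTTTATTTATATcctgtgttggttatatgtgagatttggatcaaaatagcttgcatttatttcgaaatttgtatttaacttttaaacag
fz (chr3L:14304018-14304118, + strand): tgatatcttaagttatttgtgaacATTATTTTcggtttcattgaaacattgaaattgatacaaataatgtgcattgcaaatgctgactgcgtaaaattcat

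The strongest of them lay in ush, which encodes a cofactor of GATA transcription factors. Its summit, at chr2L:481079, ranked 4 of all 8529 peaks by the authors' signal value, at 10787, and ranked 5, 4 and 3 in the lists of replicates 1, 2 and 3. The replicates' own summits lay 22 bp or less away. The nearest start site, at 1391 bp, belonged not to ush but to cbt, a zinc finger transcription factor gene. The peak in Tlk, a kinase gene, ranked 80 and lay 2310 bp from a start of that gene, and its ranks in the replicates were 79, 60 and 100. The peak in osp ranked 115, with 117, 128 and 122 in the replicates, and lay 14473 bp from the nearest start, inside an intron interval of 36735 bp between exons. Those in Hr4 and Eip75B, both nuclear receptor genes of the ecdysone response, ranked 125 and 160, and were 5812 and 5416 bp from a start. The peak in fz, a Frizzled receptor gene, ranked 164 and was the farthest of the 8 from a start, at 25278 bp.

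Several of the strongest peaks were nearer to a start of another gene than to any start of the gene around them. CG1677 held 3 of the 15 strongest matched peaks. The first of them, rank 93, lay 710 bp from a start of brk, a repressor of Dpp target genes. The second, rank 107, lay 812 bp downstream of a start of Dok, an adaptor protein gene nested in CG1677, and so inside Dok as well. The third, rank 215, lay 3064 bp from unc-119. The peak of rank 144 in CG33158 was 3088 bp from the start of aos and also inside aos, whose product, Argos, is a secreted inhibitor of the EGF receptor. The other 5 of the 15 were 2 in sbb, which encodes a transcriptional corepressor (ranks 119 and 212), and 1 each in the corepressor gene Smr (192), in shn, a zinc finger factor gene of Dpp signalling (205), and in mub, an RNA-binding protein gene (243). Ranks of these 15 in the single replicates ran from 3 to 482, the highest being that of the second sbb peak in replicate 3. Over all long-gene intron peaks, the nearest start belonged to a gene of 50000 bp or longer that held the peak in 751 cases (70.6%) and to another gene in 312.

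Long-gene introns were more thinly bound than the introns of shorter genes. They held 46.2 peaks per Mb of intron sequence open to the rule (exact Poisson interval 43.5 to 49.1, over 23.0 Mb), and the introns of shorter genes held 83.3 per Mb (79.8 to 86.9, over 25.5 Mb). In replicates 1, 2 and 3 the density in long genes was 44.2, 44.5 and 45.5 per Mb, and in shorter genes 83.2, 81.5 and 84.4. The replicates did not overlap between the classes. The ratio of long to shorter was 0.532, 0.547 and 0.540 (mean 0.539 ± 0.00737, SD, n = 3; exact two-sided sign-flip permutation p = 0.25). With 3 replicates 0.25 is the smallest p this test can give, so no test here can pass 0.05, and differences are read against the spread of the replicates. Intervals on counts of peaks cover counting error only. Long genes thus held 33.3% of all intron peaks on 47.4% of the intron sequence.

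A share of the long-gene sequence occurs more than once in the genome. Of the intron bases open to the rule, 87.1% in long genes and 98.8% in shorter genes stood at the centre of a 31-base sequence found once in the assembly. All 1063 long-gene intron peaks had their summit at such a base. Counted over unique bases alone, an alternative chosen after seeing the data, the mean ratio over replicates was 0.611, still below 1 in each replicate.

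The ratio of long to shorter genes varied with distance from a start site without a steady order, and was lowest in the farthest class. Between 500 and 1000 bp from the nearest protein-coding start there were 124 peaks per Mb in long genes (99.1 to 154) and 126 in shorter genes (114 to 139). The mean ratio over replicates there was 0.910 ± 0.0400 (SD, n = 3). Between 2000 and 5000 bp the densities were 72.3 and 76.1 per Mb, with a ratio of 0.929 ± 0.0144. Between 10000 and 20000 bp they were 50.8 and 48.5 per Mb, and the direction differed between lists: the ratio was 1.05 in the reproducible list and 0.968 ± 0.0232 in the replicates. Beyond 20000 bp long genes held 17.9 peaks per Mb (15.2 to 21.0) and shorter genes 35.5 (22.8 to 52.9, from 24 peaks), a ratio of 0.508 ± 0.0217. Counting only unique bases raised the long-gene density in that class to 25.6 per Mb, with 37.0 in shorter genes. The mean ratio over replicates was then 0.695 ± 0.0298 (SD, n = 3). In the classes between, the ratio was 0.782 ± 0.0537 between 1000 and 2000 bp and 0.750 ± 0.0211 between 5000 and 10000 bp. In all 6 classes the 3 replicates lay below 1 (exact sign-flip permutation p = 0.25 for each, the smallest possible). Under other settings single replicates passed 1 in the classes from 500 to 1000, 2000 to 5000 and 10000 to 20000 bp, with a ratio of at most 1.03. None did in the other classes. With genes of 100000 bp or longer as the long class, the mean ratio was 0.602 between 10000 and 20000 bp and 0.304 beyond 20000 bp.

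**Figure D1:**
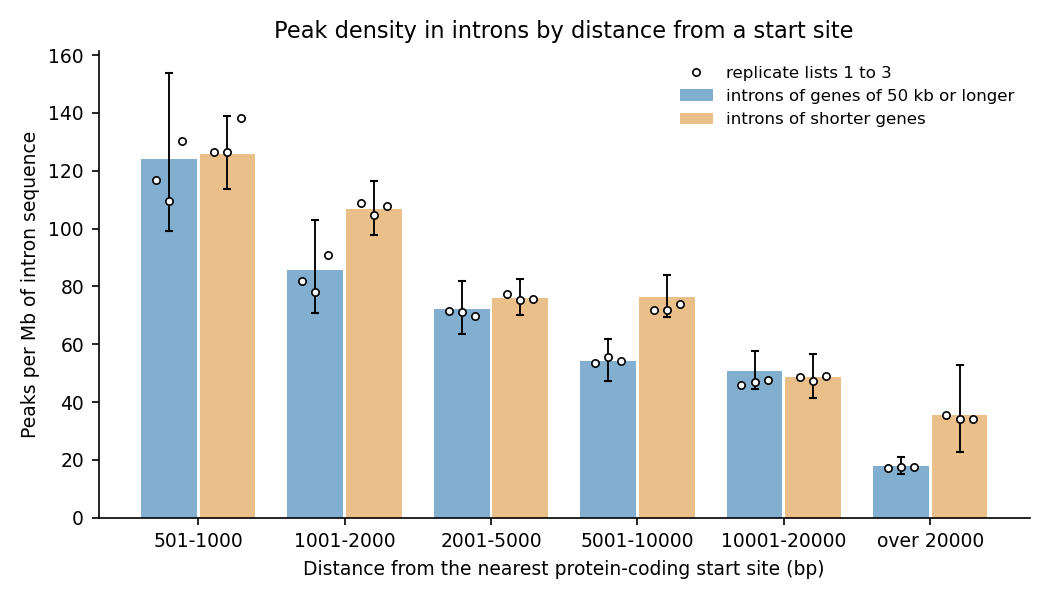
Peaks per Mb of intron sequence (vertical axis) in 6 classes of distance from the nearest protein-coding start site (horizontal axis, bp), for introns of genes of 50 kb or longer and of shorter genes; bars show the reproducible list with exact Poisson 95% intervals, and circles the 3 replicate lists. The classes start alike, at 124 and 126 per Mb, and end at 17.9 and 35.5 per Mb (25.6 and 37.0 over unique bases, not drawn).

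Long-gene intron peaks lay farther from starts than those of shorter genes, and nearer than the long-gene intron sequence as a whole. The median distance to the nearest start was 6455 bp in long genes and 2573 bp in shorter ones, and 394 long-gene intron peaks (37.1%) were more than 10000 bp away, compared with 8.85% in shorter genes. Of the long-gene intron sequence itself, 58.5% lay beyond 10000 bp. The farthest peak was 86631 bp from any protein-coding start. Starts of non-coding genes were not part of the rule, and 14 peaks (1.32%) lay within 500 bp of one, as did 0.705% of the sequence.

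Of the 307 long genes, 187 held 1 or more of these peaks (60.9%, 55.2 to 66.4), and this share was 60.9%, 61.2% and 62.2% in the replicates. This is also the background against which any group of long genes below has to be read. The other 120 genes held none, 25 held 1, 71 held 2 to 4, 58 held 5 to 9 and 33 held 10 or more. The 20 genes with the most peaks held 324 of the 1063 (30.5%) on 8.18% of the intron sequence. These genes were picked by the same counts, which raises their share, so whether binding was concentrated was not tested.

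The gene with the most was kirre, an immunoglobulin-domain adhesion protein gene needed for the fusion of muscle precursor cells. The fifth longest gene of all, it spans chrX:2740384-3134532 and held 34 intron peaks, with 26, 29 and 33 in the replicates. Next came CG1677 with 20 (22, 19 and 19) and fz2, a receptor for Wingless, with 20 (19, 16 and 15). The other Frizzled gene of this length, fz, held 18 (16, 17 and 17), as did hth, a homeodomain partner of the Hox proteins (21, 16 and 16). CG43658 held 17 and SKIP 16. Each of pnt, an ETS factor of the EGF receptor pathway, px, sbb and Tet, a dioxygenase gene, held 15. With 14 each followed Eip75B, shn, the zinc finger gene jing, the RhoGAP gene cv-c, mtgo and Ten-a, a teneurin gene. The list of 20 ended with rdx, an adaptor for the degradation of the Hedgehog pathway factor Ci, at 13, and with ush and Tlk at 12 each. Ptp61F and sick also held 12 and were placed after them by the summed signal value of their peaks. Not every one of these peaks was matched in the replicates. A summit within 100 bp in all 3 lists was found for 21 of the 34 in kirre, 12 of 20 in fz2, 9 each of 16 in SKIP, 15 in Tet and 14 in cv-c, and 6 of 13 in rdx, and for all 15 in sbb and all 12 in Tlk. With a match asked for in only 2 of the replicates, whichever was left out, kirre had 22 or 23, fz2 13 or 14, and rdx 6 to 9.

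**Figure D2:**
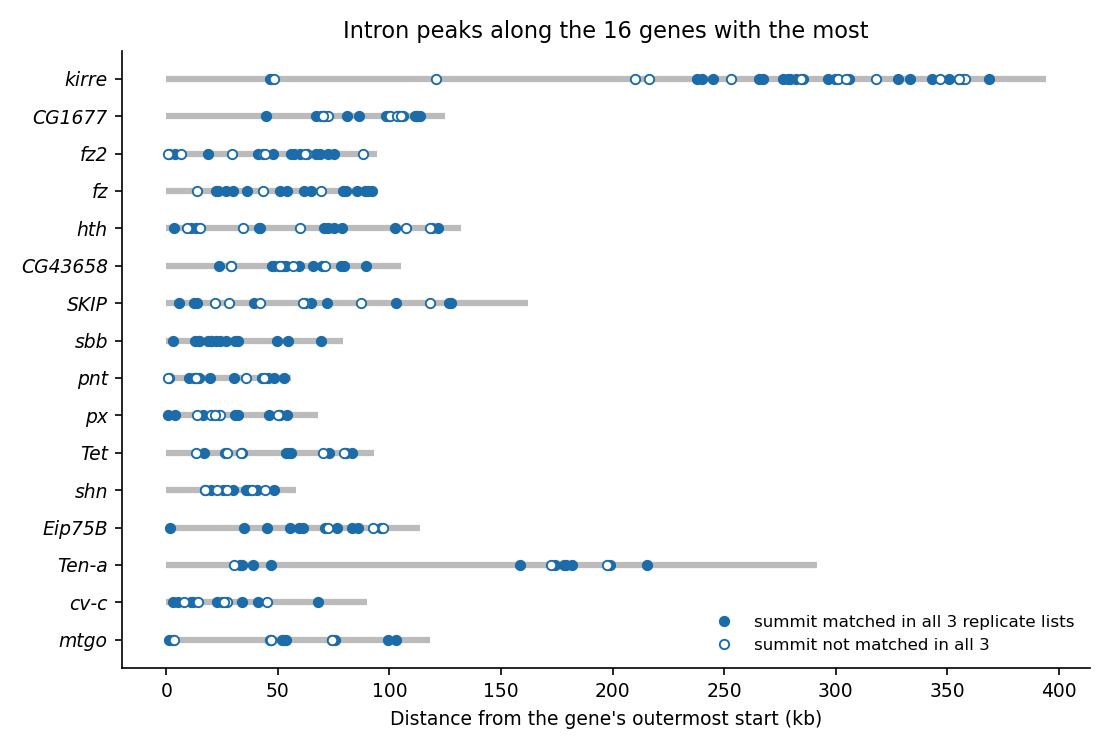
Long-gene intron peaks (points) along the 16 genes with the most of them (grey lines, gene length), by distance in kb from the gene's outermost start; filled points had a summit within 100 bp in all 3 replicate lists and open points did not. In kirre most of the 34 peaks lie far from its outermost start, while in fz the 18 peaks run along the gene.

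Peaks in the same gene differed in which start they were near. All 20 peaks of fz2, all 17 of CG43658 and all 15 of pnt had a start of their own gene as the nearest. In kirre 17 of 34 did, and 9 were nearest to CG4116, a gene nested in it. In fz 4 of 18 were nearest to a start of fz, and 8 to CG13482. In CG1677 none of 20 was nearest to its own start, and the 20 divided over 7 other genes, led by brk with 6. Counts by gene therefore describe where a peak lies, and which gene it acts on was not tested.

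Density per Mb ranked the genes differently from the counts. Among genes with 5 or more such peaks, shn was densest, at 327 per Mb of intron sequence (179 to 549), with 374, 327 and 397 in the replicates. It was followed by pnt at 309, px at 304, Tlk at 282, sbb at 268 and rdx at 261. Then came hiw, a ubiquitin ligase gene, at 257, cic, a repressor controlled by receptor tyrosine kinases, at 255, ftz-f1, a nuclear receptor gene, at 247, and fz2 at 242. The intervals of all 10 overlap, so their order is not resolved.

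The 4 longest genes held none. These were Myo81F, of 1965857 bp, Pzl, of 709421 bp, lovit, of 434041 bp, and CG17684, of 396036 bp, and between 36.2% and 44.6% of their intron bases were unique. In all, 11 genes had under 50% unique intron bases, a limit chosen after seeing the data, and together they held 3.91 Mb of intron sequence and no peak. Peaks missing for lack of placeable reads and peaks missing for lack of binding cannot be told apart in these genes. Among the 10 longest genes without a peak, bru3 and dpr6 were almost fully unique. In bru3, an RNA-binding protein gene of 281494 bp with 99.8% unique bases, no peak was found in any of the 3 replicate lists either, and its upper limit was 14.6 per Mb. The same held for dpr6, an immunoglobulin-domain surface protein gene of 164710 bp, with an upper limit of 27.4 per Mb. The remaining 4 of the 10 longest genes without a peak were DIP-lambda, Snap25, l(3)80Fg and Gprk1, with 42.6%, 64.1%, 54.9% and 46.2% unique bases.

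**Figure D3:**
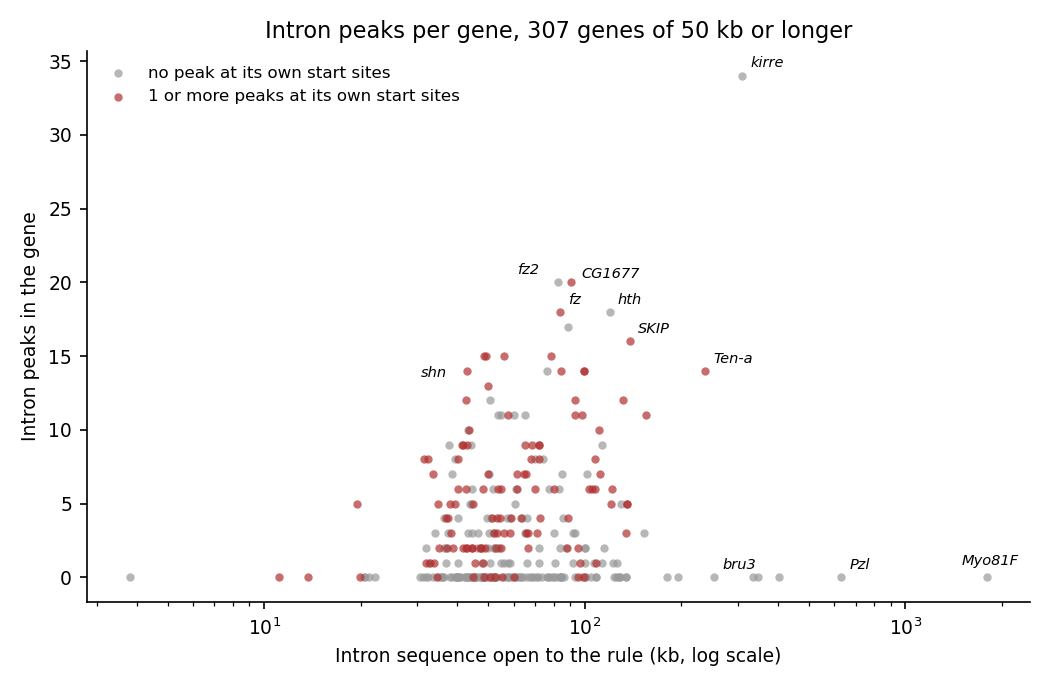
Number of intron peaks (vertical axis) against the intron sequence open to the rule (horizontal axis, kb, log scale) for each of the 307 genes of 50 kb or longer, coloured by whether the gene also had a peak within 500 bp of 1 of its own start sites. The highest point is kirre with 34 peaks, and the points at 0 spread along the axis, among them Myo81F, 36.2% of whose intron bases are unique.

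Genes that were also bound at a start site held more of these peaks, a comparison chosen after seeing the data. Of the 114 long genes with a peak within 500 bp of 1 of their own starts, 102 held a long-gene intron peak (89.5%, 82.3 to 94.4), at 88.4 per Mb. Of the 193 without, 85 did (44.0%, 36.9 to 51.4), at 26.2 per Mb. The ratio of the densities was 3.38 in the reproducible list and 4.49, 3.33 and 2.45 in the replicates (mean 3.42 ± 1.02, SD, n = 3; exact sign-flip permutation p = 0.25). Every replicate had the higher density in the genes bound at a start. Intron bases were 99.1% unique in the former and 82.0% in the latter, and over unique bases the densities were 89.3 and 31.9 per Mb. Among the genes without a peak at their own starts, kirre, fz2 and hth held the most intron peaks, 34, 20 and 18.

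Binding was not spread evenly over the kinds of genes that are long. The groups were 6 lists of genes by role, and a gene's density is given per Mb of its intron sequence. The lists cover only part of the long genes, and a list need not hold every long gene of its role. Counts and densities therefore describe the listed genes only. In none of the 6 lists were 184 of the 307, which had 38.6 peaks per Mb (47.1 over unique bases). Over all 307 genes the density was 46.0 per Mb and the median gene had 30.4.

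Transcription factor and signalling genes had the highest densities of the 6 lists, and their order depended on the bases counted. Transcription factor and cofactor genes led over all bases. Of 27 long ones 24 held a peak, 193 in all, at 122 per Mb (105 to 140), with 128, 127 and 129 in the replicates, and the median gene had 107. The leading members, hth, sbb and pnt, held 18, 15 and 15. The other 3 held none: fru, for which replicates 2 and 3 listed 1 peak each, pdm3 and chinmo. Eip93F, also a transcription factor gene and also without a peak, was not on this list. Among signalling genes, of 11 long ones 8 held a peak, at 114 per Mb (89.8 to 142), with 102.0, 100.5 and 100.5 in the replicates, and the median gene had 114. Over unique bases signalling genes had 130 per Mb and transcription factor genes 122, with 87.7% and 99.9% of their intron bases unique. Behind fz2 and fz stood tkv, the type I receptor for Dpp, with 9 peaks (8, 10 and 7). The 3 without were Gprk1 and Gprk2, kinases of G protein-coupled receptors, and the MAP kinase gene rl.

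Genes of the cytoskeleton, muscle, matrix and cell junctions lay nearer to the average, at 65.0 per Mb (50.8 to 82.0), and 14 of 20 held a peak. They were led by cv-c with 14, the junction protein gene pyd with 9 in the list and in every replicate, and the adhesion gene ed with 8. Among the 6 with none were the titin gene sls, the exchange factor gene sif and fred. RNA-binding protein genes had 36.3 per Mb (27.4 to 47.1), with a peak in 12 of 14, led by pum, a translational repressor, and Rbfox1, with 11 each, and cpo with 7. Without a peak were bru3 and Syp. Axon guidance and neural adhesion genes had 37.8 per Mb (31.1 to 45.5) and a peak in 18 of 33. Here kirre, Ten-a and Sema1a held 34, 14 and 10, while DIP-lambda, dpr6 and the receptor phosphatase gene Lar were among the 15 with none. Although it also acts in muscle precursors, kirre was counted in this list and not with the muscle genes. It gave 34 of the 112 peaks here, so the densities of both lists depend on its placing.

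Ion channel, transmitter receptor and synapse genes were the least bound list, at 9.91 per Mb (4.95 to 17.7), and 8.11 in each replicate. Of 18 genes 3 held a peak, 11 peaks in all, and their intron bases were 99.7% unique. The phosphodiesterase gene dnc and rg held 5 each and the potassium channel gene Elk 1. No peak was found in the potassium channel gene Sh, of 138.941 kb, or in nAChRalpha6 and nAChRalpha3, subunits of acetylcholine receptors, and none in any replicate list. Long genes of this kind not on the list included Prosap, with 4 peaks, and shakB, Neto and Sytbeta, with 1 each. Snap25, with no peak and 64.1% unique bases, was not on it either. Counting only peaks matched in both other replicates, the density of this list was 6.31, 5.41 and 7.21 per Mb with replicate 1, 2 or 3 left out. The match lowered every list, that of transcription factors to 98.4, 95.9 and 93.4. Of its 18 genes 2 had a peak at a start, compared with 15 of the 27 transcription factor genes. Expression was not analysed here, and the part of gene activity in these densities was not tested.

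**Figure D4:**
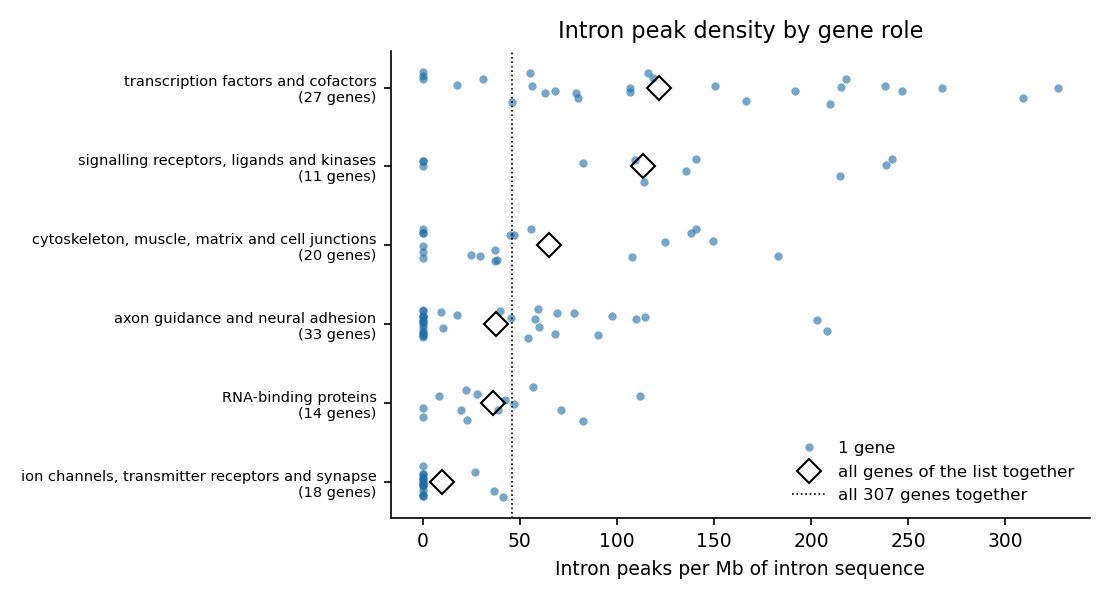
Intron peaks per Mb of intron sequence (horizontal axis) for each long gene (points) in 6 lists by role, with the density of each whole list (diamonds) and of all 307 genes (dotted line, 46.0 per Mb). Ion channel and synapse genes stand lowest, at 9.91 per Mb, and signalling and transcription factor genes highest, at 114 and 122 per Mb, and in the ion channel list 15 of the 18 genes are at 0.

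Within long genes the peaks leaned toward the start. With each gene divided into 4 equal parts from its outermost start, the first part held 63.4 peaks per Mb (57.2 to 70.0), and the following ones 43.1, 40.4 and 35.4. The first part held 35.9% of the peaks and 26.1% of the sequence. The ratio of these shares was 1.37, 1.36 and 1.34 in the replicates (mean 1.36 ± 0.0168, SD, n = 3; exact sign-flip permutation p = 0.25), above 1 in each. Density also varied with the size of the interval between neighbouring exons in which a peak lay. It was 32.7 per Mb in intervals of up to 2000 bp, 62.8 in those between 5000 and 10000 bp, and 13.7 in those over 50000 bp, which rose to 26.7 per Mb of unique bases. Among the chromosome arms the density ran from 35.7 per Mb on 3R to 55.4 on X. Over unique bases the 5 large arms lay between 47.8 (3R) and 56.1 (2L). The 1 long gene on arm 4 held none, on 0.0206 Mb, which allows up to 179 per Mb.

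Some of the peaks lay close together. The median distance from one to its nearest long-gene intron peak on either side was 2414 bp, and 245 (23.0%) had another within 1000 bp. No spacing was taken for comparison, so whether this is closer than their density alone would give was not tested. The closest groups of 3 spanned 572 bp in CG42342 on 3R, 598 bp in mtgo on 2L and 678 bp in CG1677 on X. In the first, the summits lay at 16524303, 16524675 and 16524875 and the weaker of them ranked 3127 and 3477. Only 46 peaks had any other peak within 200 bp.

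The median signal of long-gene intron peaks was close to that of the whole list, and few were among the very strongest. Their signal values, which are the authors' and used here only for ranking, had a median of 498, compared with 505 over the whole list. They made up 3 of the 100 strongest peaks (3.00%, 0.623 to 8.52), 30 of the next 400 (5.12% to 10.5%), and between 10.6% and 14.1% of each class of ranks below 500. In the replicates the share among the first 100 was 3.23%, 3.06% and 3.00%. Intron peaks of shorter genes were 19 of the 100 strongest. The median percentile of signal differed from that of shorter genes' intron peaks by 0.952, -2.84 and -4.30 points in the replicates (long minus shorter; exact sign-flip permutation p = 0.5), so the replicates did not share a direction. All 3 were lower in long genes among the 4264 strongest peaks of each list (-5.02, -7.01 and -4.84), in the whole lists (-4.85, -4.09 and -4.72) and with genes of 100000 bp or longer (-1.68, -3.52 and -8.26). Median peak width was 348 bp, compared with 383 bp in introns of shorter genes and 480 bp at promoters.

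The summits recurred between replicates about as often as in introns of shorter genes, and their share exceeded that at promoters. A summit within 100 bp was found in all 3 replicate lists, each limited to its strongest 8529 peaks, for 732 long-gene intron peaks (68.9%, 66.0 to 71.6), and for 68.0% of those in shorter genes and 62.2% of promoter peaks. In the whole lists of 30000 peaks the shares were 91.3% and 90.7% for long and shorter genes. The strongest long-gene intron peak not matched in all 3 was a second one in ush, at chr2L:520739, with rank 751 and no match in replicate 3. Seen from each replicate's own peaks, the share matched in the other lists was higher in long genes by 4.13, 1.22 and 2.81 points (mean 2.72 ± 1.46, SD, n = 3; exact sign-flip permutation p = 0.25). In the whole lists this difference turned round, to -2.30 points, so its direction depended on how far down the lists it was taken.

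The sequence under the summits was rich in A and T, as in the printed examples. The stretches of 50 bases to either side of a summit were 70.0% A+T on average (SD 7.90 over 1063 peaks), flanks centred 300 bp away were 55.6%, and all intron sequence open to the rule was 59.7%. The summit was richer than its flanks in 928 peaks (87.3%). Summit minus flank was 12.3, 13.8 and 14.2 points in the replicates (mean 13.5 ± 1.00, SD, n = 3; exact sign-flip permutation p = 0.25), and over the whole lists of 30000 peaks it fell to 5.98. The sequence printed for osp, at 80.2% A+T with a run of 23, was the richest of the 15 strongest matched peaks, and the mub peak was the poorest of them, at 51.5% with flanks of 62.4%. The difference in the reproducible list was 13.2 points in introns of shorter genes, 11.0 at promoters and 15.8 outside protein-coding genes. Long exceeded shorter introns by 1.06, 0.701 and 0.623 points in the replicates (exact sign-flip permutation p = 0.25). An unbroken run of 15 or more A and T, a length chosen after seeing the data, was present at 23.0% of summits, in 5.83% and 6.77% of the flanks, and in 9.05% of all windows of the same size laid along the same introns. At intron summits of shorter genes the share was close, at 21.4%.

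**Figure D5:**
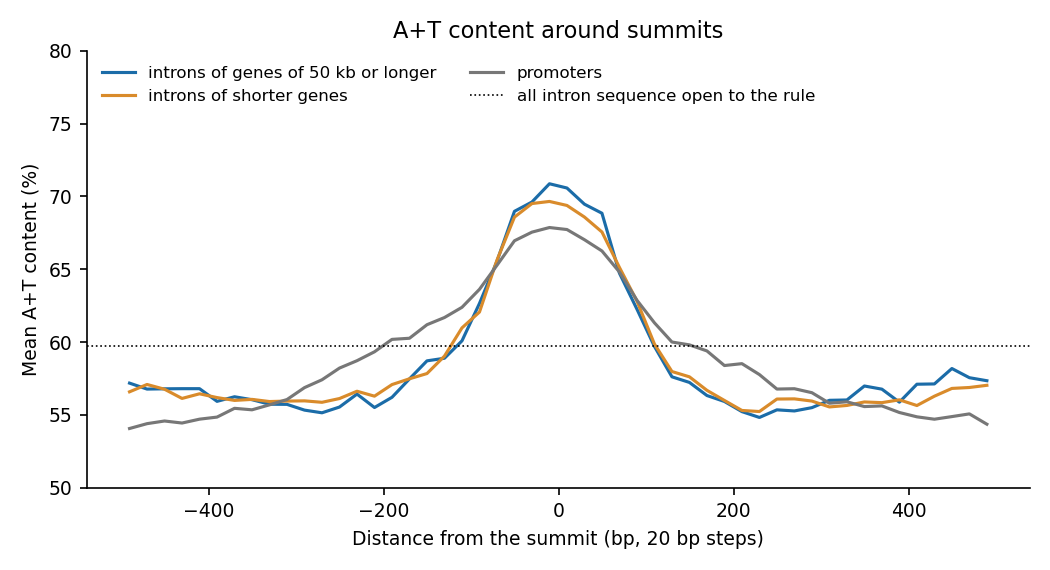
Mean A+T content (vertical axis, %, from 50) in 20-bp steps around the summit (horizontal axis, bp) of long-gene intron peaks, intron peaks of shorter genes and promoter peaks, with all long-gene intron sequence as a dotted line at 59.7%. The peak of A+T content centres on the summit in each class and is narrower in introns than at promoters.

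Among 19 short sequences searched for on both strands, some were more frequent under the summits than in all windows and others less. TAATTA, the core bound by many homeodomain proteins, was present in 13.3% of long-gene intron peaks (11.3 to 15.5), with 11.2%, 13.7% and 12.4% in the replicates, compared with 5.93% and 5.08% of the flanks and 7.42% of all windows. TATTTATA, bound by MEF2, was present in 4.99%, compared with 2.09% of windows, and TGTTTAC, bound by forkhead proteins, in 4.14% compared with 1.98%. Several other sequences were less frequent under summits than in all windows, and the flanks held more of them than the windows did. GAGAG, bound by GAGA factor, was in 7.81% of summits, 11.7% of windows, and 14.0% and 15.6% of flanks. CAGCAGCA was in 0.282% of summits, 1.46% of windows, and 3.20% and 2.73% of flanks. For ACACACA the shares were 2.16%, 4.92%, and 6.87% and 6.21%. Intron summits of shorter genes had similar shares, with TAATTA in 11.7%, TATTTATA in 4.94%, TGTTTAC in 3.58% and GAGAG in 8%. AAAAAAAA, at 8.94% (7.29 to 10.8), and GGTCACAC, at 0.188% (0.0228 to 0.678), had intervals that held the shares in windows, 7.47% and 0.162%. TATCGATA, bound by DREF, was in none of the 1063 (upper limit 0.346%). A match is a description of the letters, not of a bound factor, and base composition alone shifts these shares. All 10 words of 8 bases ranked highest on 2L and X consisted of A and T. On 3L and 3R the first of them, AAAATATT, was in 9.23% of 455 summits and in 3.27% of windows. The share in summits over that in windows was 2.83 for AAAATATT on these 2 arms. For TATTTATA it was 2.38, taken over all 1063 peaks and all windows. Over all 136 words of 8 bases made of A and T alone, the median of this ratio was 2.50. Neither word thus stood apart from words of the same composition.

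A few peaks lay just inside or outside the limits of the rule. The shortest genes included were Sytbeta, of 50283 bp with 1 peak, and ab, of 50403 bp with 4, while NetA, of 49917 bp with 6, and Octalpha2R, of 49945 bp with none, were just too short. The peaks nearest to a start were in pyd, at 505 bp, and bun, at 511 bp, and those just excluded were in Pdp1, at 499 bp, and psq, at 490 bp. Nearest to an exon were peaks in hth and sbb, 12 and 15 bp away, and peaks in beat-Ib and mbl lay 17 and 46 bases into an exon and were left out. In all, 110 intron peaks of long genes were excluded for a start within 500 bp, and 33 peaks in long genes lay in an exon. Of the peaks included, 21 lay in 2 long genes at once and 28 also lay inside a shorter gene.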

How the data were processed

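The 3 samples formed 1 group, numbered by the labels' biological replicates. The authors deposited, per the labels' file listings, a peak list for each replicate (30000 peaks), made with a control file not analysed here, a pooled list (30000) and the reproducible list (8529), thresholded by irreproducible discovery rate, all on dm6. Each peak has the authors' signal value, on a scale not given, and a −log10 q-value, which in the deposited thresholded list is the same for every peak and was not used. Neither aligner nor peak caller is given in the sources used here. No deposited file gives read counts.

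Peaks were placed on Ensembl release 115 (BDGP6.54) genes and RefSeq sequence in Python 3.11.15 with numpy 2.4.6, pandas 2.3.3 and scipy 1.17.1. Transposable elements counted as exons. Replicate values used the strongest 8529 peaks of each list. Densities are peaks per Mb of bases meeting the same rule, with exact Poisson intervals, and shares have exact Clopper-Pearson intervals, both at 95%. Differences were tested by an exact two-sided sign-flip permutation over the 3 replicates. The steps were tested on simulated peaks.

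Members, gene lists and tests were chosen with earlier results of these data known. Named are the 20 genes with the most peaks, the 15 strongest peaks matched in all 3 replicates, the 5 longest genes, the 10 longest without a peak, the 10 densest with 5 or more, the peaks nearest each limit, for each role list the 3 genes with the most and up to 3 with none, and the 3 closest groups. Genes named for their nearby start sites follow from these. Alternatives changed the promoter window, gene length, list, match distance, sequence window, merging, start sites and replicates. Those added after seeing the data were the unique bases, the transposable elements, the comparison of genes bound at a start, and the role list settings.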

Additional observations from a re-analysis of the deposited data

How the results depend on the processing

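Of 181 alternative values of the main results, 162 kept their direction or stayed within the spread of the replicates, 18 moved by more than that spread and 1 turned round. Since 3 replicates cannot pass the threshold, this speaks of direction only. Some of the 162 merely repeated the main value and say nothing of its stability. Limiting start sites to protein-coding transcripts changed no value, and changing the promoter window left each ratio by distance as it was. The share of reproducible peaks that lay in long-gene introns was 13.4% with promoters of 200 bp and 11.5% with 1000 bp. It was 16.1% with genes of 40000 bp or longer and 4.22% with 100000 bp. Among the 4264 strongest reproducible peaks it was 12.2%, and in the pooled list of 30000 peaks 15.5%. With each replicate left out, it was 12.7% to 13.1% of the reproducible peaks matched in the other replicates. The share of long genes with a peak was, in the same order, 62.5%, 57.7%, 59.0%, 63.9%, 53.1% and 71.0%, and 57.0% to 58.6%. The difference in replicate matching was -2.30 points in the whole lists. The causes were not tested, beyond the alternatives' own changes in genes, bases and peaks. The density ratio of long to shorter genes ran from 0.382 (genes of 100000 bp or longer) to 0.611 (unique bases). The ratio for genes bound at a start ran from 2.68 among the 4264 strongest peaks to 11.7 in the whole lists. Depth is unknown, so a gene without a peak had none past the authors' threshold. No paired analysis was possible because there was 1 group.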
